A study of Mus musculus with 2 samples.

Results

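The genes described here encode cytochrome P450 enzymes of families 1 to 3, the heme-containing oxygenases of the endoplasmic reticulum that carry out most oxidation of drugs and other foreign compounds in the liver. They were taken as every probe set (called a probe below) annotated to a single gene symbol that begins with Cyp1, Cyp2 or Cyp3 followed by a subfamily letter and a number, with the brightest such probe standing for a gene. This gave 54 genes of 19938 on the array, in 17 subfamilies, each with 1 such probe. Values came from 2 Affymetrix arrays, 1 for each pool of liver RNA. The first pool was labelled FHL2-/-, for the LIM-domain adaptor protein FHL2, and is called the knockout-labelled pool, and the second was labelled wild-type. Each combined the left-lobe RNA of 3 male mice aged 10 to 11 weeks, and both groups had the same hybrid Black Swiss/129-SV/J background.

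There is no replicate of either pool, so no test between pools was possible and no p-value is given. The pooling removes the spread between mice from the data. A difference below is on the log2 scale and positive where the knockout-labelled pool is higher. The only error that could be measured is that between several probes of 1 gene on these arrays, an SD of 0.143 on the log2 scale over 660 genes, and it covers neither mice nor hybridisations. Fhl2 itself was at 5.33 in the knockout-labelled pool and 5.30 in the wild-type pool (log2 signal), and the labels do not say which exons the allele lacks, so its 1 probe does not check the genotype. Array medians were 5.71 and 5.76 in the same order of pools. Livers were whole tissue, in which fewer cells of a type and less RNA per cell cannot be told apart.

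P450 enzymes of these families receive electrons from P450 reductase, and several are induced by the compounds they oxidise. The nuclear receptor CAR, encoded by Nr1i3, and the related PXR, encoded by Nr1i2, drive Cyp2b and Cyp3a genes, and the aryl hydrocarbon receptor drives Cyp1 genes. In mouse liver many of them are expressed around the central vein, and some differ between the sexes under the pattern of growth hormone release.

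The largest difference among the 54 genes was that of Cyp2b9, a female-biased enzyme of the mouse, which in the knockout-labelled pool was 2.05-fold higher, and Cyp2b10 of the same gene cluster, the classical CAR target induced by phenobarbital, was 1.58-fold higher. Cyp2b9 was dim, with a wild-type level under the filter described next. A probe shared by Cyp2a4 and Cyp2a5, steroid and coumarin hydroxylases, was 1.33-fold higher. Of the members with a mean level of 10 or more, 20 of 23 lay within 0.2 of no difference on the log2 scale, among them Cyp1a2, Cyp2e1, Cyp2c29 and Cyp3a11. The other 3 were Cyp2d40 at 0.28, Cyp2a12 at 0.25 and Cyp2c68 at -0.36. On the lower side no gene reached 1.5-fold, and Cyp2c66, Cyp3a44, Cyp1a1 and Cyp2c68 were 1.28-fold to 1.37-fold lower. Of these, Cyp2c66 and Cyp1a1 were dim. A probe that Cyp2c68 shares with related genes was at 0.014, and those that include Cyp3a44 were at -0.011 and -0.077 (log2 differences). Among all genes, 3.8% of those past the filter and 9.76% of the dim ones were lower by 0.322 or more on the log2 scale.

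A level filter set at the 40th percentile of single-symbol probes, 5.44 on the log2 scale, was passed by 37 of the 54 genes and by 11924 of all 19938. The genes nearest to this level were Cyp3a57, with a mean of 5.67, among those that passed and Cyp2b9, with a mean of 5.20, among those that did not. The table has no detection call, so a gene below this level is called dim and not absent. The 37 had a median difference of 0.017 (-0.0038 with the trend of the difference on level removed), against 0.040 for all genes past the filter, and 20 of the 37 (54.1%) were above 0, against 59.5% of all genes. Within 0.2 of no difference lay 29 of the 37 (78.4%), against 74.8% of all genes. For the members at 10 or more the share was 87.0%, against 88.3% of the 912 genes of the array at such levels. A difference of 0.322 or more on the log2 scale, written 0.32 from here on, was found on the higher side in 1 of the 37, Cyp2b10, where 4.89% of all genes past the filter were that much higher. On the lower side it was found in 2 of the 37, Cyp3a44 and Cyp2c68, where 3.8% of all genes were as far apart. At 1.5-fold the count was 1 higher, against a background of 0.621%, and 0 lower, against 0.335%. With the array medians made equal, the split at 0.32 was 1 higher and 1 lower, and that of all genes was 882 higher and 321 lower in place of 583 and 453. With the trend on level removed it was 470 higher and 516 lower over all genes. At 0.32 the members' shares are near the background in both directions.

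Among the 17 dim genes 2 were higher by 0.32 or more, Cyp2b9 and Cyp2a22, against 6.65% of the 8014 dim genes of the array, and 2 were as much lower, Cyp1a1 and Cyp2c66, against 9.76%. At 1.5-fold Cyp2b9 was the 1 dim member on the higher side, where 0.986% of dim genes were.

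**Figure D1:**
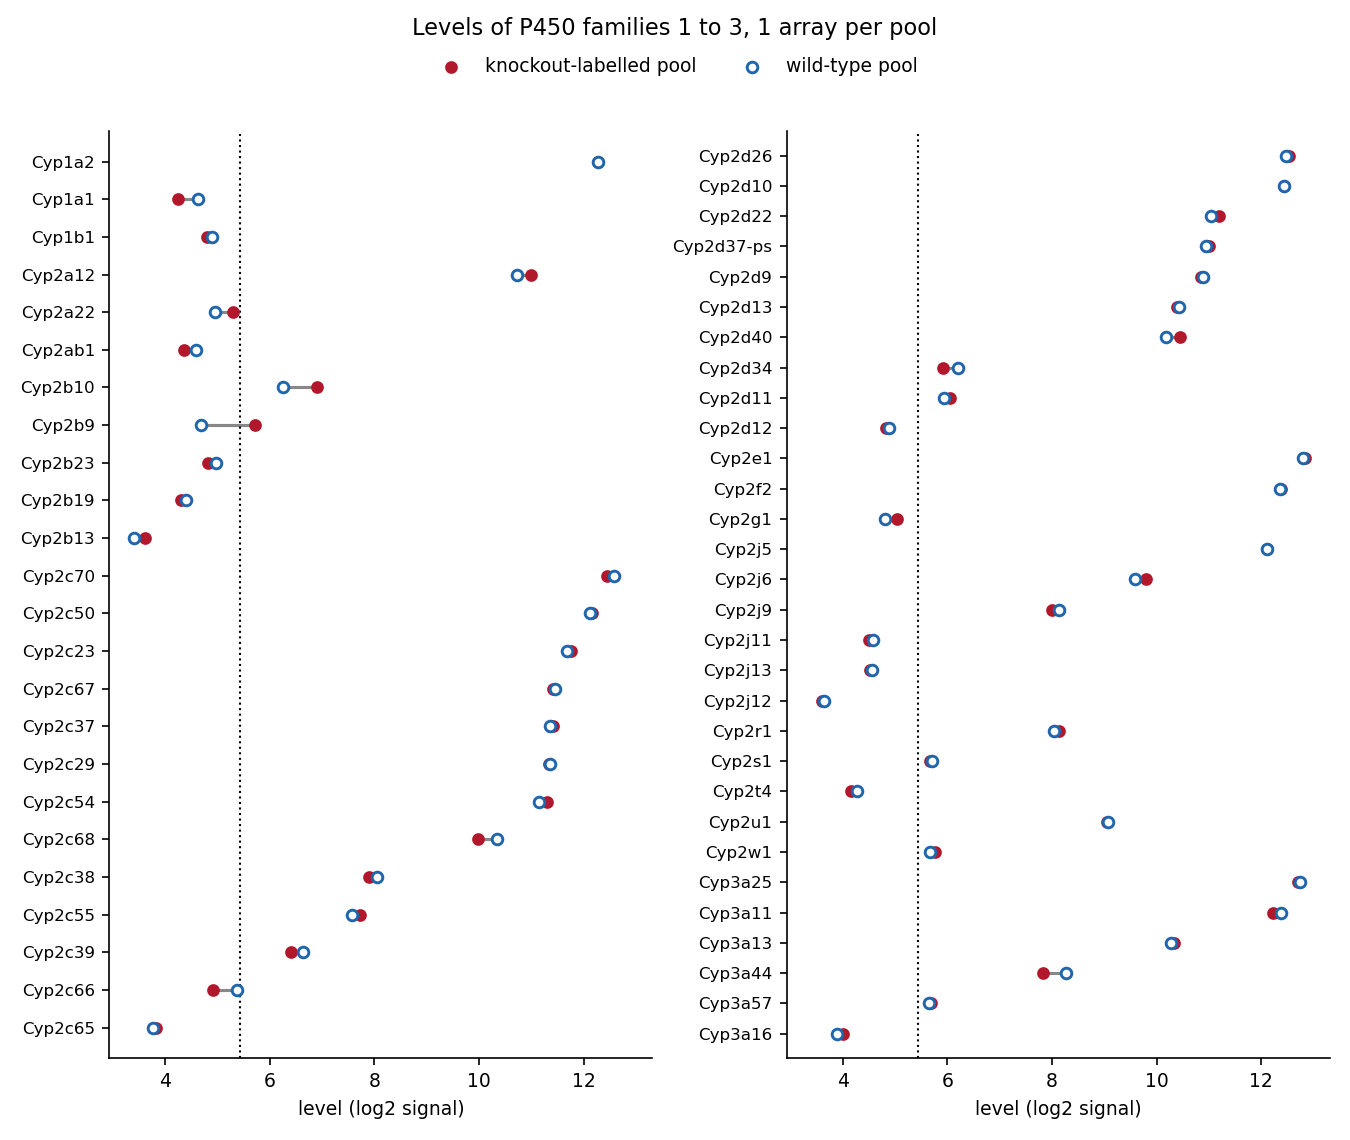
Level of each of the 54 genes as log2 signal on the horizontal axis, with filled points for the knockout-labelled pool, open points for the wild-type pool and a dotted line at the level filter of 5.44. Most pairs of points overlap, and the widest gaps belong to Cyp2b9 and Cyp2b10, whose knockout-labelled point lies to the right.

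**Figure D2:**
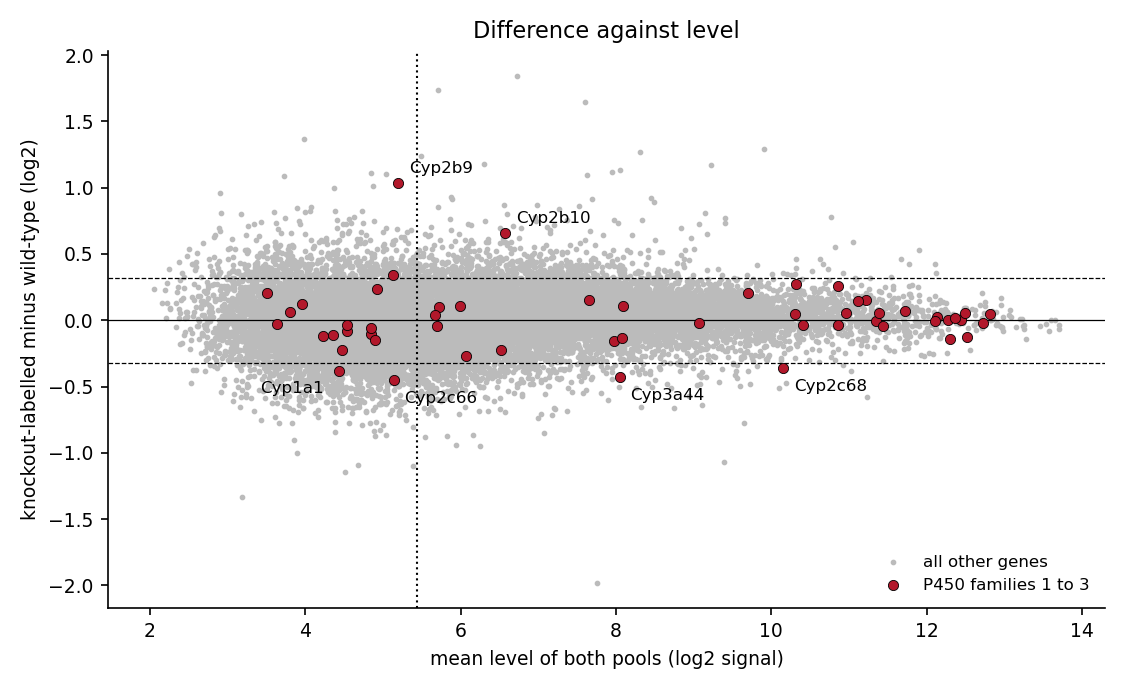
Difference between the pools on the log2 scale against mean level for every gene (grey) and for the 54 P450 genes (red), with dashed lines at 0.32 and -0.32 and a dotted line at the level filter. Cyp2b9 at 1.03 and Cyp2b10 at 0.66 stand above the other red points.

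The Cyp2b subfamily, which metabolises barbiturates and steroids, held the widest range. Cyp2b9 was at 5.72 in the knockout-labelled pool and 4.68 in the wild-type pool. The wild-type value lies under the filter level and the knockout-labelled value above it, so the gene is dim in 1 pool and the size of its fold is uncertain. Cyp2b10 was at 6.91 in the knockout-labelled pool and 6.25 in the wild-type pool, a difference of 0.66. Cyp2b13, the closest relative of Cyp2b9 and also female-biased, was at 3.61 in the knockout-labelled pool and 3.41 in the wild-type pool. Cyp2b19, known from skin, and Cyp2b23 were dim and slightly lower in the knockout-labelled pool, at -0.11 and -0.15.

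The sequences just before the start of the leading Cyp2b and Cyp2a genes are printed to show how alike the upstream windows of these genes are. They are not transcript and do not show what a probe can tell apart. All lie on the plus strand of build GRCm38.p6 and come from RefSeq. Cyp2b10 covers chr7:25897408-25897657, Cyp2b9 chr7:26173159-26173408, Cyp2b13 chr7:26061245-26061494, Cyp2a4 chr7:26306942-26307191 and Cyp2a5 chr7:26835089-26835338. Each run is the 250 bases before the gene's start, and capitals mark a match on either strand to 1 of 4 motifs. The TATA box was searched as TATAAA. The half-site of nuclear receptors such as CAR was searched as AGGTCA. The core that the aryl hydrocarbon receptor binds was searched as GCGTG. The site of STAT5, which acts downstream of growth hormone, was searched as TTCNNNGAA.
Cyp2b10: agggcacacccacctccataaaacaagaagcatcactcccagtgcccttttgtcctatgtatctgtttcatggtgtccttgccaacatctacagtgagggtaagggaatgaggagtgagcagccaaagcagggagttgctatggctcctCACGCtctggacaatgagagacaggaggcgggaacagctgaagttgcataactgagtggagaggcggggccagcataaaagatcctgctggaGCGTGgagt
Cyp2b9: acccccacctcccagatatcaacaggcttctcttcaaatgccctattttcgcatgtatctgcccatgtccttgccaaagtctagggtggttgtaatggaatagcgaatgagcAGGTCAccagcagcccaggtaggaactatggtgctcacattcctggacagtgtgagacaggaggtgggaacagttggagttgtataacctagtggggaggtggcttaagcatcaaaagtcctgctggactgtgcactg
Cyp2b13: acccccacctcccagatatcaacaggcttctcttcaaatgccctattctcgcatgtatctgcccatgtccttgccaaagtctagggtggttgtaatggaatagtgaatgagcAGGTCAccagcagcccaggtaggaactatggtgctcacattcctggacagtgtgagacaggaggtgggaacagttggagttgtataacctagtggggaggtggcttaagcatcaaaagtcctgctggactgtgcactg
Cyp2a4: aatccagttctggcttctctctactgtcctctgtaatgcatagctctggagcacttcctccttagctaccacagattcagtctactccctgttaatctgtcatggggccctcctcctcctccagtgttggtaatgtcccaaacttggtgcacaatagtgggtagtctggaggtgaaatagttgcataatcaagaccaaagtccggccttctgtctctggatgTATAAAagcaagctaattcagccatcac
Cyp2a5: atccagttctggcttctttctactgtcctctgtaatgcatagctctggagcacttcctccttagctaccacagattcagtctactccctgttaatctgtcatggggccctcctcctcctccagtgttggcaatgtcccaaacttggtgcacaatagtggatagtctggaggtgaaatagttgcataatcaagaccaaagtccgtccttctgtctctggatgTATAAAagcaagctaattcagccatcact

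Cyp2b9 and Cyp2b13 were identical at 99.2% of 250 aligned positions, while Cyp2b10 matched each of them at 70.0% of 260. Cyp2a4 and Cyp2a5 were identical at 97.6% of 251 positions. Cyp2b9 and Cyp2b13 each held 1 AGGTCA, Cyp2b10 held 2 GCGTG, and Cyp2a4 and Cyp2a5 each held 1 TATAAA, with 0 overlaps among these matches. TTCNNNGAA was in 0 of the 5 windows. Over all 53 genes of these families in the promoter table, some of them without a probe of their own, TATAAA was present in 25 (47.2%), against 12.4% of all 32851 windows. AGGTCA was in 15 (28.3%) against 4607 of all windows, GCGTG in 9 (17.0%) against 28.2% of all and TTCNNNGAA in 2 (3.77%) against 7.02%. A match is a run of letters and not a bound site, and sequence outside these 250 bases was not searched.

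The Cyp2a subfamily was higher at each of its 3 probes. The probe shared by Cyp2a5, the coumarin hydroxylase, and Cyp2a4, a testosterone hydroxylase, was at 11.07 in the knockout-labelled pool and 10.66 in the wild-type pool, a difference of 0.42. Because this probe names both genes, it stands outside the 54, and which of them it reads cannot be told. Cyp2a12, a steroid and bile acid hydroxylase, was at 10.98 in the knockout-labelled pool and 10.73 in the wild-type pool. Cyp2a22 was dim at 5.29 in the knockout-labelled pool and 4.95 in the wild-type pool, 1.26-fold higher.

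The Cyp2a and Cyp2b genes lie together in a cluster on chromosome 7 that also holds Cyp2s1, Cyp2g1, Cyp2f2 and Cyp2t4. This grouping by chromosome was chosen after the values were seen. Of the 11 genes of the cluster with a probe of their own, 7 (63.6%) were above 0, against 53.6% of all genes of the array. Their median was 0.20 whatever their level, and the 4 that passed the filter had a median of 0.14. Without regard to level the Cyp2c cluster on chromosome 19 had a median of -0.0055 over 13 genes, the Cyp2d cluster on chromosome 15 of 0.028 over 10, the Cyp3a genes on chromosome 5 of 0.0091 over 6 and the Cyp2j cluster on chromosome 4 of -0.031 over 6. All genes of the array taken the same way were at 0.017. Inside the chromosome 7 cluster the higher genes were not a single run, since Cyp2b23 and Cyp2b19 lie between Cyp2a4 and Cyp2g1. The 4 measured genes of the interval that encode no P450 were all dim, with Nlrp9c and Nlrp4a both at 0.32, Nlrp9a at -0.013 and Vmn1r185 at -0.040.

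**Figure D3:**
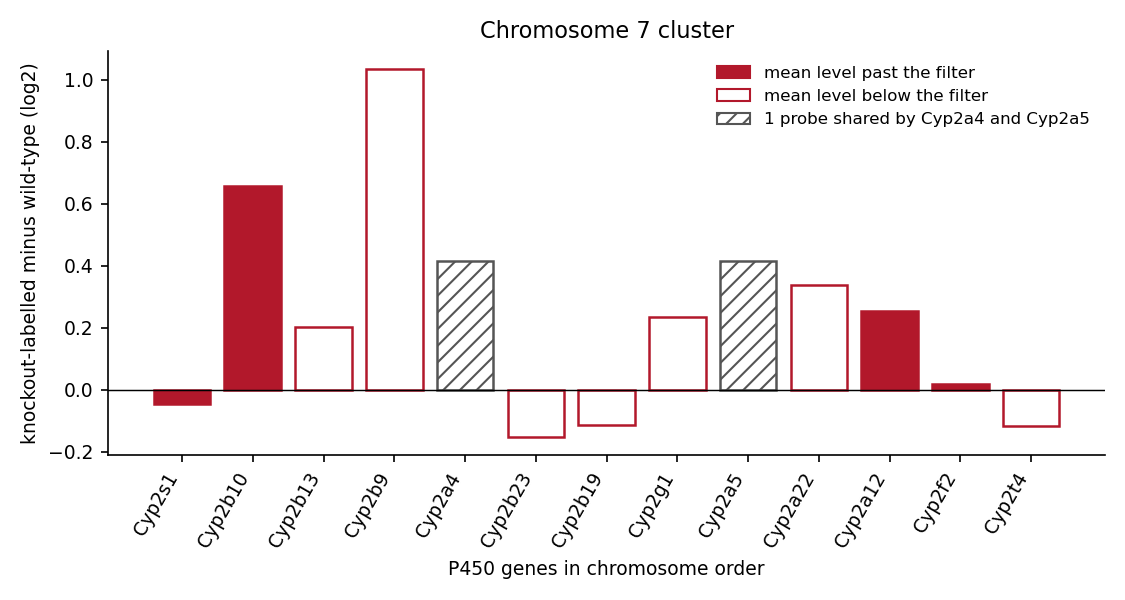
Difference between the pools (log2, vertical axis) for the P450 genes of the chromosome 7 cluster in chromosome order, with equal spacing that does not show distance. Filled bars passed the level filter, open bars did not, and the hatched bars repeat the value of 0.42 of the probe that Cyp2a4 and Cyp2a5 share.

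Cyp2g1, an enzyme of the olfactory mucosa, was dim at 5.05 in the knockout-labelled pool and 4.81 in the wild-type pool. Cyp2f2, which oxidises naphthalene and in liver is found around the portal vein, was at 12.37 in the knockout-labelled pool and 12.35 in the wild-type pool, a difference whose sign turned with the trend on level removed. Cyp2s1, an epithelial enzyme, was at -0.047 and the dim Cyp2t4 at -0.12.

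Cyp1 genes were nearly equal or dim. Cyp1a2, which oxidises caffeine and arylamines in liver, was at 12.27 in both pools, and the sign of its difference of -0.0007 turned with equal array medians. Cyp1a1, its mostly extrahepatic relative that appears when the aryl hydrocarbon receptor is activated, was dim at 4.25 in the knockout-labelled pool and 4.63 in the wild-type pool. Cyp1b1, also mostly extrahepatic, was at 4.80 in the knockout-labelled pool and 4.90 in the wild-type pool. None of the 3 genes was above 0 on the deposited scale.

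Cyp2c genes, which oxidise drugs and arachidonic acid, were measured at 13 probes of their own, and 11 passed the filter with a median of -0.0055 (0.036 with equal array medians) and 5 above 0. Cyp2c70, which makes the muricholic acids of mouse bile, was at 12.45 in the knockout-labelled pool and 12.58 in the wild-type pool. Cyp2c50 was at 12.15 in the knockout-labelled pool and 12.13 in the wild-type pool, and Cyp2c29, a constitutive and phenobarbital-inducible enzyme, at 11.34 and 11.35 in the same order. These pairs differed by less than the SD between probes of a gene, and the signs of Cyp2c50 and Cyp2c29 turned with the trend removed and with equal medians in that order.

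Cyp2c68 was the lowest of the Cyp2c genes past the filter, at 9.97 in the knockout-labelled pool and 10.33 in the wild-type pool, 1.28-fold lower. A second probe, shared by Cyp2c68 with Cyp2c40, Cyp2c67 and Cyp2c69, was at 11.55 in the knockout-labelled pool and 11.54 in the wild-type pool, and the probe of Cyp2c67 alone was at -0.045. The lower value of Cyp2c68 therefore rests on its own probe and is uncertain among near-identical copies. Cyp2c39, a female-biased gene, was at 6.41 in the knockout-labelled pool and 6.64 in the wild-type pool. The other Cyp2c genes past the filter ran between -0.15 for Cyp2c38 and 0.15 for Cyp2c54 and Cyp2c55, with the epoxygenase gene Cyp2c23 at 0.073 and Cyp2c37 at 0.058. Dim were Cyp2c65 at 0.059 and Cyp2c66, which was at 4.92 in the knockout-labelled pool and 5.37 in the wild-type pool, 1.37-fold lower.

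Cyp2d genes, related to the human debrisoquine hydroxylase, had 10 probes of which 9 passed, with a median of 0.052 and 6 above 0. Cyp2d26 was at 12.52 in the knockout-labelled pool and 12.47 in the wild-type pool, and Cyp2d10 at 12.44 in both, where the trend on level decides the sign. Cyp2d9, a male-biased testosterone hydroxylase, was at 10.85 in the knockout-labelled pool and 10.88 in the wild-type pool, with the sign turning to 0.0084 under equal medians. The ends of the range were Cyp2d40 at 0.28 and Cyp2d34 at -0.27, each about 1.21-fold from equal. Cyp2d22 was at 0.15 and Cyp2d11 at 0.11. Cyp2d13 at -0.035 and Cyp2d37-ps at 0.052 are listed as transcribed pseudogenes by RefSeq, and Cyp2d12 was dim at -0.055.

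Cyp2e1, which oxidises ethanol and paracetamol, was at 12.84 in the knockout-labelled pool and 12.79 in the wild-type pool. Cyp2j5, an arachidonic acid epoxygenase of kidney and liver, was at 12.11 in the knockout-labelled pool and 12.12 in the wild-type pool, a sign that equal medians turned. Its relatives Cyp2j6 and Cyp2j9 were at 0.20 and -0.14, and the dim Cyp2j11, Cyp2j12 and Cyp2j13 lay between -0.081 and -0.025. Cyp2r1, which performs the first hydroxylation of vitamin D, was at 8.14 in the knockout-labelled pool and 8.03 in the wild-type pool. The fatty acid hydroxylase gene Cyp2u1 was at -0.019 (0.023 with equal medians), Cyp2w1, known from colon and its tumours, at 0.10, and the dim Cyp2ab1 at -0.22.

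Cyp3a genes had 6 probes of their own, and the 5 past the filter had a median of -0.022 (0.019 with equal medians), with 2 above 0. Cyp3a11, the main PXR-regulated Cyp3a enzyme of adult mouse liver, was at 12.22 in the knockout-labelled pool and 12.37 in the wild-type pool, a difference of -0.14 close to the SD between probes. Cyp3a25 was at 12.71 in the knockout-labelled pool and 12.73 in the wild-type pool, with the sign turned by equal medians, Cyp3a13 was at 0.050 and Cyp3a57 at 0.041. Cyp3a44, a female-biased gene, was at 7.83 in the knockout-labelled pool and 8.26 in the wild-type pool, 1.35-fold lower. A probe shared by Cyp3a41a, Cyp3a41b and Cyp3a44 was at 9.06 in the knockout-labelled pool and 9.07 in the wild-type pool, and one shared by these and Cyp3a11 at 9.12 in the knockout-labelled pool and 9.19 in the wild-type pool. As for Cyp2c68, the probes that include the gene differ, and the value of -0.43 holds for the single-gene probe. A probe shared by Cyp3a25, Cyp3a57 and Cyp3a59 was at -0.14, and the dim female-biased Cyp3a16 was at 0.13.

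Female-biased P450 genes were not all on one side. Of 10 listed, 5 had a probe of their own, and of these Cyp2b9, Cyp2b13 and Cyp3a16 were above 0 and all dim, while Cyp2c39 and Cyp3a44 were below 0 and past the filter. The other 5, namely Cyp2a4, Cyp2c40, Cyp2c69, Cyp3a41a and Cyp3a41b, were named only by the shared probes at 0.42, 0.014, -0.011 and -0.077 given above. Pericentral P450 genes with a probe of their own, Cyp1a2, Cyp2c29, Cyp2e1 and Cyp3a11, had a median of -0.0031 and ran from -0.14 to 0.048. The fifth listed gene, Cyp2a5, has only the shared probe. Other genes marking the hepatocytes around the central vein were above 0 in 9 of 9, against 59.5% of all genes, with a median of 0.28. Of these, 4 were higher by 0.32 or more, against 4.89% of all genes. Lgr5 at 0.012 and Axin2 at 0.038 were under the median of all genes. Glul, glutamine synthetase, was at 0.33 and Oat, an aminotransferase, at 0.42. Periportal markers had a median of 0.039 over 6 genes, with 4 above 0. They were mixed, running from Arg1 at -0.21 to Pck1 at 0.42, the 1 that was higher by 0.32 or more. Cyp2f2, itself a P450 gene described above, is on this list, and Cps1 is also on the hepatocyte list.

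The regulators and partners of these enzymes were looked at as lists chosen with earlier results of these data known. Of 20 transcription factors and nuclear receptors 19 were measured and 18 passed the filter, with a median of 0.14 and 15 above 0, against 0.040 and 59.5% for all genes. Higher by 0.32 or more were 2 of them, Onecut1 at 1.27 and Cebpb at 0.37, both liver transcription factors, and 1 was as much lower, the repressor gene Bcl6 at -1.98. The shares over all genes were 4.89% higher and 3.8% lower. Nr1i3, which encodes CAR, was at 9.76 in the knockout-labelled pool and 9.58 in the wild-type pool. Nr1i2, which encodes PXR, was at 8.97 in the knockout-labelled pool and 8.75 in the wild-type pool. Both differences, 0.18 and 0.23, are larger than the SD between probes and under 0.32. With the trend on level removed they were 0.137 and 0.177, and that of Nr1i3 was then under the SD of 0.143. Ahr, the aryl hydrocarbon receptor gene, was at 8.46 in the knockout-labelled pool and 8.43 in the wild-type pool, with the sign turned by removing the trend on level.

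Targets of that receptor outside the P450 genes had 2 of 4 measured members past the filter, with the quinone reductase gene Nqo1 1.35-fold higher and Tiparp at 0.18. The dim members of that list were Ahrr at -0.13 and Aldh3a1 at 0.13. Partners that pass electrons to P450 enzymes or bind them had a median of 0.12 over 5 genes, with 0 at 0.32 or beyond and Pgrmc2 the furthest at 0.30. Por, the P450 reductase gene, was not analysed here because no probe of the annotation used names it. Of the heme supply genes, which make or remove the P450 cofactor, 9 passed with a median of 0.13, and the 1 past 0.32 was Alas1, which catalyses the limiting step of heme synthesis, 2.45-fold higher, with the heme oxygenase gene Hmox1 just under the threshold at 0.32. Other drug-oxidising and drug-hydrolysing enzymes, 24 genes, had a median of 0.081 and 1 past 0.32, the monoamine oxidase gene Maoa at 0.46. Beside these lists, all genes past the filter had a median of 0.040, with 4.89% higher and 3.8% lower by 0.32 or more.

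**Figure D4:**
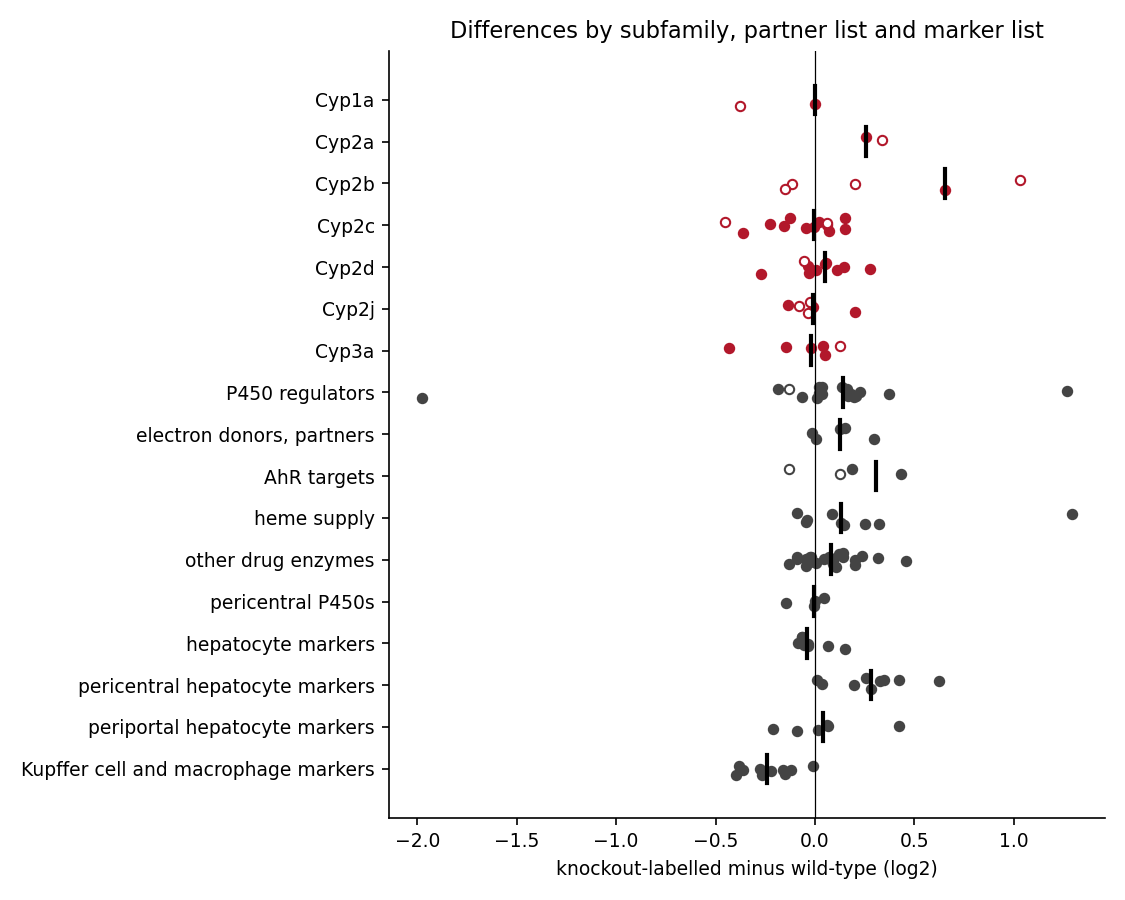
Difference between the pools (log2, horizontal axis) for the genes of 7 P450 subfamilies (red) and of partner and marker lists (grey), with open points for dim genes and a black bar at the median of those past the level filter. Cyp2a and Cyp2b points reach furthest right among the subfamilies, at the dim Cyp2a22 and the dim Cyp2b9. Among points past the filter, Cyp2d40 at 0.28 lies right of Cyp2a12 at 0.25. The Cyp2c, Cyp2d, Cyp2j and Cyp3a medians lie near 0.

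P450 enzymes of other families were set beside these values. The 11 family 4 genes past the filter, which hydroxylate fatty acids, had a median of -0.086 and 4 above 0, with 0 at 0.32 or beyond in either direction. The 12 genes of the remaining families, mostly enzymes of sterols, bile acids and retinoids, had a median of 0.14, and 4 were higher by 0.32 or more and 1 was lower by as much. All genes past the filter had a median of 0.040, with 4.89% higher and 3.8% lower at that size. No test of these differences between gene families was made, since each rests on the same pair of arrays.

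Markers of other cells were checked beside these values. Hepatocyte markers had 9 of 9 measured genes past the filter, with a median of -0.042, close to the gap of -0.041 between array medians. Of the 9, 7 were below 0, against 4823 of the 11924 genes past the filter. The log2 of the summed signal of the hepatocyte markers was 16.29 in the knockout-labelled pool and 16.33 in the wild-type pool. Kupffer cell and macrophage markers were below 0 in 10 of 10 genes, against 4823 of the 11924 genes past the filter. Their median was -0.24, though Cd5l at -0.0077 is nearer 0 than the gap between array medians. Of the 10, 3 were lower by 0.32 or more, against 3.8% of all genes, and their summed signal was 11.59 in the knockout-labelled pool and 11.80 in the wild-type pool. The pericentral list summed to 13.67 in the knockout-labelled pool and 13.33 in the wild-type pool. Endothelial markers were at a median of 0.13 over 5 genes, bile duct markers at 0.15 over 3, exocrine pancreas markers at 0.083 over 2 and the 1 measured red blood cell marker, Alas2, at 0.29. Kidney markers were dim in all 3 genes, and 1 of 3 lung and 1 of 3 intestinal markers passed the filter, at 0.25 and -0.17. The part of these cell types in the P450 values was not tested.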

How the data were processed

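Liver RNA of 2 pools was hybridised to 1 Affymetrix array each, from 300 ng of total RNA turned into biotin-labelled cDNA, per the labels. Deposited values are on the log2 scale, 1 for each probe on each array. Partek 6.4, RMA and Affymetrix Expression Console 1.0 are listed, per the submitters' processing notes, with no role for any. No genome build is given for the deposited values in the sources used here. As a method, RMA corrects background and summarises short oligonucleotides on the log2 scale, which compresses differences of dim genes, and levels of different probes are not abundances that can be ranked.

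Of 28853 probes, 21789 carry 1 gene symbol in the platform annotation, 1621 several and 5443 none. The members with 1 symbol, 54 genes, all matched RefSeq (GRCm38.p6) by Entrez identifier. Differences were taken with pandas 2.3.3 without further scaling, and counted at 0.32 (log2) and 1.5-fold past a level filter on the mean of both arrays. No test was made. The steps were checked on simulated data, with large differences planted in genes well above the level filter and counted at 1.5-fold. The added noise was below the SD between probes. That check covered neither dim genes nor the threshold of 0.32.

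The members and lists were chosen with earlier results of these data known. Genes named are the 10 with the highest level, the highest of each subfamily, those past 0.32, the sex-biased and pericentral P450 genes, and regulators and partners past 0.32 with Nr1i3, Nr1i2 and Ahr. Other genes named for a value were picked with that value in view. Alternatives were a common median, a lowess trend with span 0.3 removed (statsmodels 0.14.6), the mean over probes, the level filter left out or raised to the 60th percentile, inclusion of 5 probes shared by members, and for the median over members its mean or the median without the member furthest from 0. A filter on the higher of both arrays was added after seeing the data. Promoter windows were aligned with biopython 1.88. The number of arrays limits the precision.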

Additional observations from a re-analysis of the deposited data

How the results depend on the processing

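Counts at these folds rest on few genes and move with the filter. Higher by 0.32 or more were 3 of 54 members with no level filter and 0 of 30 with the filter at the 60th percentile. They were 2 of 42 with shared probes included and 2 of 38 with the filter on the higher of both arrays. That last alternative was chosen after seeing the data and keeps a gene for its higher pool. Over all genes these counts were 1116 of 19938, 320 of 7877, 584 of 11929 and 627 of 12323 in the same order. Lower by as much were 4 with no filter, against 1235 of all genes, and 1 after the common median shift, against 321 of 11924. At least 1.5-fold higher were 2 with no filter, 0 at the 60th percentile and 2 with the filter on the higher array. The counts over all genes were 153, 41 and 84. The Cyp2b median was 0.20 with no filter, which adds the dim copies, and 0.84 with the filter on the higher array, which adds Cyp2b9. The Cyp1a median was -0.19 with no filter, which adds Cyp1a1.

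The median over members changed sign without the filter, to -0.0031, and with the trend removed, to -0.0038. The Cyp1a, Cyp2c, Cyp2j, Cyp2u and Cyp3a medians turned positive after the common median shift, and Cyp2f turned to -0.0038 with the trend removed. The Cyp2c median also turned positive at the 60th percentile (0.0078) and with shared probes (0.0041), and the Cyp3a median without the filter (0.0091). Of 37 genes followed through these alternatives, 6 changed sign after the shift and 4 with the trend removed. No move among them reached the SD between probes. Other genes named were not followed, and any at a difference between -0.041 and 0 also turns with the shift. The mean over probes changed none, because each member has 1 probe. The Cyp1b, Cyp2ab, Cyp2g and Cyp2t genes did not pass the filter and have no median past it. No paired analysis was possible because each group has 1 array.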

Other observations

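P450 genes of other families held larger differences than most genes described above. Cyp26a1, which breaks down retinoic acid, was at 8.18 in the knockout-labelled pool and 7.08 in the wild-type pool, 2.14-fold higher. Cyp17a1, an enzyme of steroid synthesis, was 1.74-fold higher, a log2 difference of 0.80. Cyp7a1, which starts the main pathway from cholesterol to bile acids, was at 8.67 in the knockout-labelled pool and 8.14 in the wild-type pool, 1.44-fold higher. Cyp8b1, which makes cholic acid, was at 0.082, and Cyp7b1, of the alternative bile acid pathway, was at -0.19 (log2 differences). In family 4 the fatty acid hydroxylase genes Cyp4a10 and Cyp4a14, targets of PPARalpha, were at -0.13 and -0.19. Each value rests on 1 array per pool and has no test, and these genes were picked after their values were seen.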
